A study of Homo sapiens with 18 samples.

Results

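Divergent transcripts are non-coding RNAs that start at the promoter of a protein-coding gene and run the other way. They were followed here in NCI-H1693, an established cell line from a human non-small cell lung cancer, given as SMARCA4-deficient in its labels. The members were selected on symbol and level: the symbol ends in -DT, and the mean over the 18 libraries was at least 1 CPM (the count over the library total, in parts per 1e6). There were 102 such transcripts among 457 symbols ending in -DT and 43236 symbols in all. Of the 457, 73 had a count of 0 in every library. The symbol before -DT names the partner gene. They were thus chosen by their mean level, and no contrast between groups was used. GTSE1-DT (mean 1.01 CPM), PELP1-DT (1.01 CPM) and GAS6-DT (1.00 CPM) were just inside the threshold, and CEBPA-DT (0.99 CPM), PIK3R5-DT (0.975 CPM) and TARS1-DT (0.965 CPM) just outside.

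Cells were kept for 6, 48 or 72 h in 50 nM PRT3789, which the series title describes as a selective degrader of SMARCA2, or in DMSO, the solvent, as the control. Each of the 6 groups had 3 libraries of oligo(dT)-selected RNA, and all groups share the line and its SMARCA4 deficiency. The results come from 1 cell line, and the labels do not say whether replicates were separate cultures, so the spread between libraries may be technical. Levels below are edgeR CPM on library totals scaled with edgeR's TMM factors (a trimmed mean of log ratios), not divided by transcript length, so they compare libraries and not genes.

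Many human promoters fire in both directions. RNA polymerase II that leaves the promoter upstream usually stops early, and its product is removed by the nuclear RNA exosome, a complex of ribonucleases. Polyadenylation signals close to the start favour this early end, whereas splice sites bound by the U1 ribonucleoprotein favour elongation. Transcripts that escape, are spliced and gain a poly(A) tail are the ones annotated as -DT genes and the ones that oligo(dT) selection can capture. SWI/SNF draws its ATPase from a pair, SMARCA2 or SMARCA4, and is a complex that moves nucleosomes at promoters and enhancers.

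Library totals ran from 23154484 to 31094797 counts, and each library held at least 1 count of all 102 transcripts. The lowest count of any member in any library was 9. SMARCA2 mRNA, which a protein degrader need not change, had a log2 fold change (log2FC, PRT3789 over DMSO) of 0.04 at 6 h, -0.19 at 48 h and -0.44 at 72 h (adjusted p = 0.00108 at 72 h in edgeR's quasi-likelihood test, and not called at 6 or 48 h). This transcript level does not check whether the protein was lost. SMARCA4 mRNA stood between 6.39 and 11.9 CPM and was not called at any time. Of the lineage markers, keratins KRT8 and KRT18 had at least 1290 CPM and EPCAM at least 559 CPM. The summed level of the 6 epithelial markers was 8030 to 11000 CPM in the DMSO libraries and the 6 h PRT3789 libraries and 4140 to 4930 CPM in the PRT3789 libraries of 48 and 72 h. The lung genes NKX2-1 and NAPSA reached at most 0.895 and 3.05 CPM, and SFTPC was at 0 in every library. Of the blood genes, PTPRC reached at most 0.953 CPM and LYZ 1.91 CPM. The 3 endothelial genes summed to 2.13 to 3.36 CPM in DMSO and 0.0995 to 0.331 CPM with PRT3789 at 48 and 72 h, with CDH5 at most at 3.1 CPM and PECAM1 at 0.207 CPM. On the fibroblast list LUM had 61.5 to 128 CPM, and DCN and PDGFRA at most 1.68 and 1.08 CPM. Whether these markers bear on the divergent transcripts was not tested.

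By the RefSeq annotation of GRCh38.p14, 99 members were found, all typed as long non-coding RNA, and all 102 partners were protein coding. MACC1-DT, RIPK2-DT and ZC3H12A-DT had no match. The annotated spans of 98 of 99 pairs overlapped or lay within 1000 bases of each other. ITGB1-DT is the exception, 24321 bases from ITGB1 with no strand given, so by this annotation it does not share its partner's promoter. For 80 pairs both start sites were given. All 80 ran on opposite strands with starts within 1000 bases, 65 of them within 300 bases, with a median distance of 158 bases and a largest one of 841 bases. In 3 pairs (EPM2A-DT, GALNT7-DT and UBE2E3-DT) the member started downstream of the nearest start of its partner. Among these 80 pairs the gene models overlapped in 14. CTBP1-DT, OSER1-DT and RELA-DT, for example, also start inside their partners' spans. Outside the 80, the spans of MAP3K2-DT and DAP-DT overlapped those of their partners as well. The spans of the members ran from 718 to 193517 bases, with a median of 6760 bases. The library kit marks strand, and the strand setting of the counting was detected by the pipeline. The models of 49 members overlapped another gene's, partners included, and for 1 of them, GATD1-DT, the other gene is annotated on the same strand.

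Promoter windows from RefSeq, 250 bases before to 50 bases after the start, were given for 84 members. Of these, 5 are printed in the direction of the divergent transcript, on GRCh38, cut where the partner's gene model begins. HIVEP2-DT rose most with PRT3789. BAIAP2-DT and ERRFI1-DT went against their partners, GAS6-DT fell together with its partner, and KDM7A-DT rose beside a partner that was not called. The windows are chr6:142946239-142946538 on the plus strand for HIVEP2-DT, chr17:81034670-81034969 on the minus strand for BAIAP2-DT, chr1:8026310-8026542 on the plus strand for ERRFI1-DT, chr13:113864077-113864226 on the plus strand for GAS6-DT and chr7:140177011-140177310 on the plus strand for KDM7A-DT. Capitals mark TGACGTC (the cyclic AMP response letters, here read on the other strand as GACGTCA) in HIVEP2-DT, GGGCGG (the GC box) in BAIAP2-DT, GAS6-DT and KDM7A-DT, and CCAAT in ERRFI1-DT.
HIVEP2-DT: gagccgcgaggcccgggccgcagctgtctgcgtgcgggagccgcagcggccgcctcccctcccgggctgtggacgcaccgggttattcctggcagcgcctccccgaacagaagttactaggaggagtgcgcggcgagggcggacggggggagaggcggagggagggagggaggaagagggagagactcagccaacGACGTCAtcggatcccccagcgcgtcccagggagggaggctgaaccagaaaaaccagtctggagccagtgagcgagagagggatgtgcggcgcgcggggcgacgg
BAIAP2-DT: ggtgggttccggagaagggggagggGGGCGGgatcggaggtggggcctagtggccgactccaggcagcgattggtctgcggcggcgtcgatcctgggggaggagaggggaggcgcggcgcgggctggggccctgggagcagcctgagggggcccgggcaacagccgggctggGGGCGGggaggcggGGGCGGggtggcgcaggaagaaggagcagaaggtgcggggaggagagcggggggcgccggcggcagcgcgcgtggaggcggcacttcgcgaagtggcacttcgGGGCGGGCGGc
ERRFI1-DT: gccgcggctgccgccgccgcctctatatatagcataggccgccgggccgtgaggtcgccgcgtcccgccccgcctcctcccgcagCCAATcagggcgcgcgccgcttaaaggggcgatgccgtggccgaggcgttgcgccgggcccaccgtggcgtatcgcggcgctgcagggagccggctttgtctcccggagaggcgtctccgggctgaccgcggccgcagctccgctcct
GAS6-DT: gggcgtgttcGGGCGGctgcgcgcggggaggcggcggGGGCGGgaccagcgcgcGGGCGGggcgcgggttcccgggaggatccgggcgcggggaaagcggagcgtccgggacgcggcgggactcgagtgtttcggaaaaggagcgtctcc
KDM7A-DT: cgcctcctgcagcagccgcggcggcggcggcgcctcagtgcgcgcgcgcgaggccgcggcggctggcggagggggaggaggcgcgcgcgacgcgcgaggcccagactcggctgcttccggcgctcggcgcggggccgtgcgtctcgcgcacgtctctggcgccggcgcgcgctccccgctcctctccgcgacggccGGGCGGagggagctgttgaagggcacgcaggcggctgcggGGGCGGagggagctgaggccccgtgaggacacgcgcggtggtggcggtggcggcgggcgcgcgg

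These windows were rich in CpG, with a median ratio of observed to expected CpG of 0.927 over the 84 members, against 0.579 over 35116 promoter windows and 0.881 over 518 windows of -DT genes of any level. Motifs were searched as exact letters on both strands. GGGCGG stood in 75% of the members' windows, against 45% of all promoters and 71.4% of all -DT windows. CGGAAG, the core bound by ETS factors, stood in 41.7%, against 19.5% of all promoters and 29.9% of -DT windows. GCGCATG, part of the NRF1 site, stood in 17.9%, against 4.43% and 6.37%. For the other motifs the shares are given for members, all promoters and -DT windows of any level in that order. TATAAA was found in 3.57, 11.5 and 4.05%, GGAATG, the letters of TEAD factors, in 4.76, 14 and 7.92%, and the AP-1 letters TGACTCA or TGAGTCA in 2.38, 4.95 and 3.09%. CCAAT stood in 36.9, 34.6 and 30.3%, CACGTG, an E box, in 11.9, 7.26 and 8.69% and TGACGTC in 7.14, 3.45 and 7.34%. The window of a partner overlaps that of its member where starts lie close, and partners gave like shares, with GGGCGG in 75.6% and CGGAAG in 44.2% of 86 windows. Split by response, TGACGTC stood in 4 of 25 windows of members that rose at 48 or 72 h, in 0 of 11 of those that fell and in 2 of 48 of the others. CGGAAG stood in 11 of the 25, in 2 of the 11 and in 22 of the 48. These are counts of letters and not of bound sites.

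In the 1000 bases after the start, AATAAA, the polyadenylation signal, was found in 32.1% of 84 members and in 15.1% of 86 partners. The share was 21.7% of 15842 protein-coding genes, 35.5% of 471 -DT genes of any level and 41.9% of 11461 long non-coding RNAs. GTAAGT, the letters of a strong 5′ splice site, stood in 21.4% of members and 12.8% of partners (17.5% of coding genes, 17% of -DT genes and 24.6% of long non-coding RNAs). AATAAA came before any GTAAGT in 27.4% of members, 14% of partners, 18% of coding genes, 32.1% of -DT genes of any level and 34.2% of long non-coding RNAs.

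In DMSO and PRT3789 alike the members ran over a wide range of levels. Mean CPM was at least 10 in 14 members, 5 to under 10 in 20, 2 to under 5 in 35 and under 2 in 33, with a median of 2.95. SLC12A2-DT, beside the gene of the sodium-potassium-chloride cotransporter, had the highest mean at 48.7 CPM. BAIAP2-DT, C2orf74-DT, EIF3J-DT, FAM151B-DT and MACC1-DT followed. Of the members, 25 were under 1 CPM in the mean of at least 1 group, among them HIVEP2-DT, ERRFI1-DT, GAS6-DT, SAP30-DT and TNFRSF10A-DT. Such members could pass the threshold through the groups where they were high. All 102 were tested with the 16291 genes that passed edgeR's filter, and PKD2L2 was the 1 partner that did not pass.

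**Figure D1:**
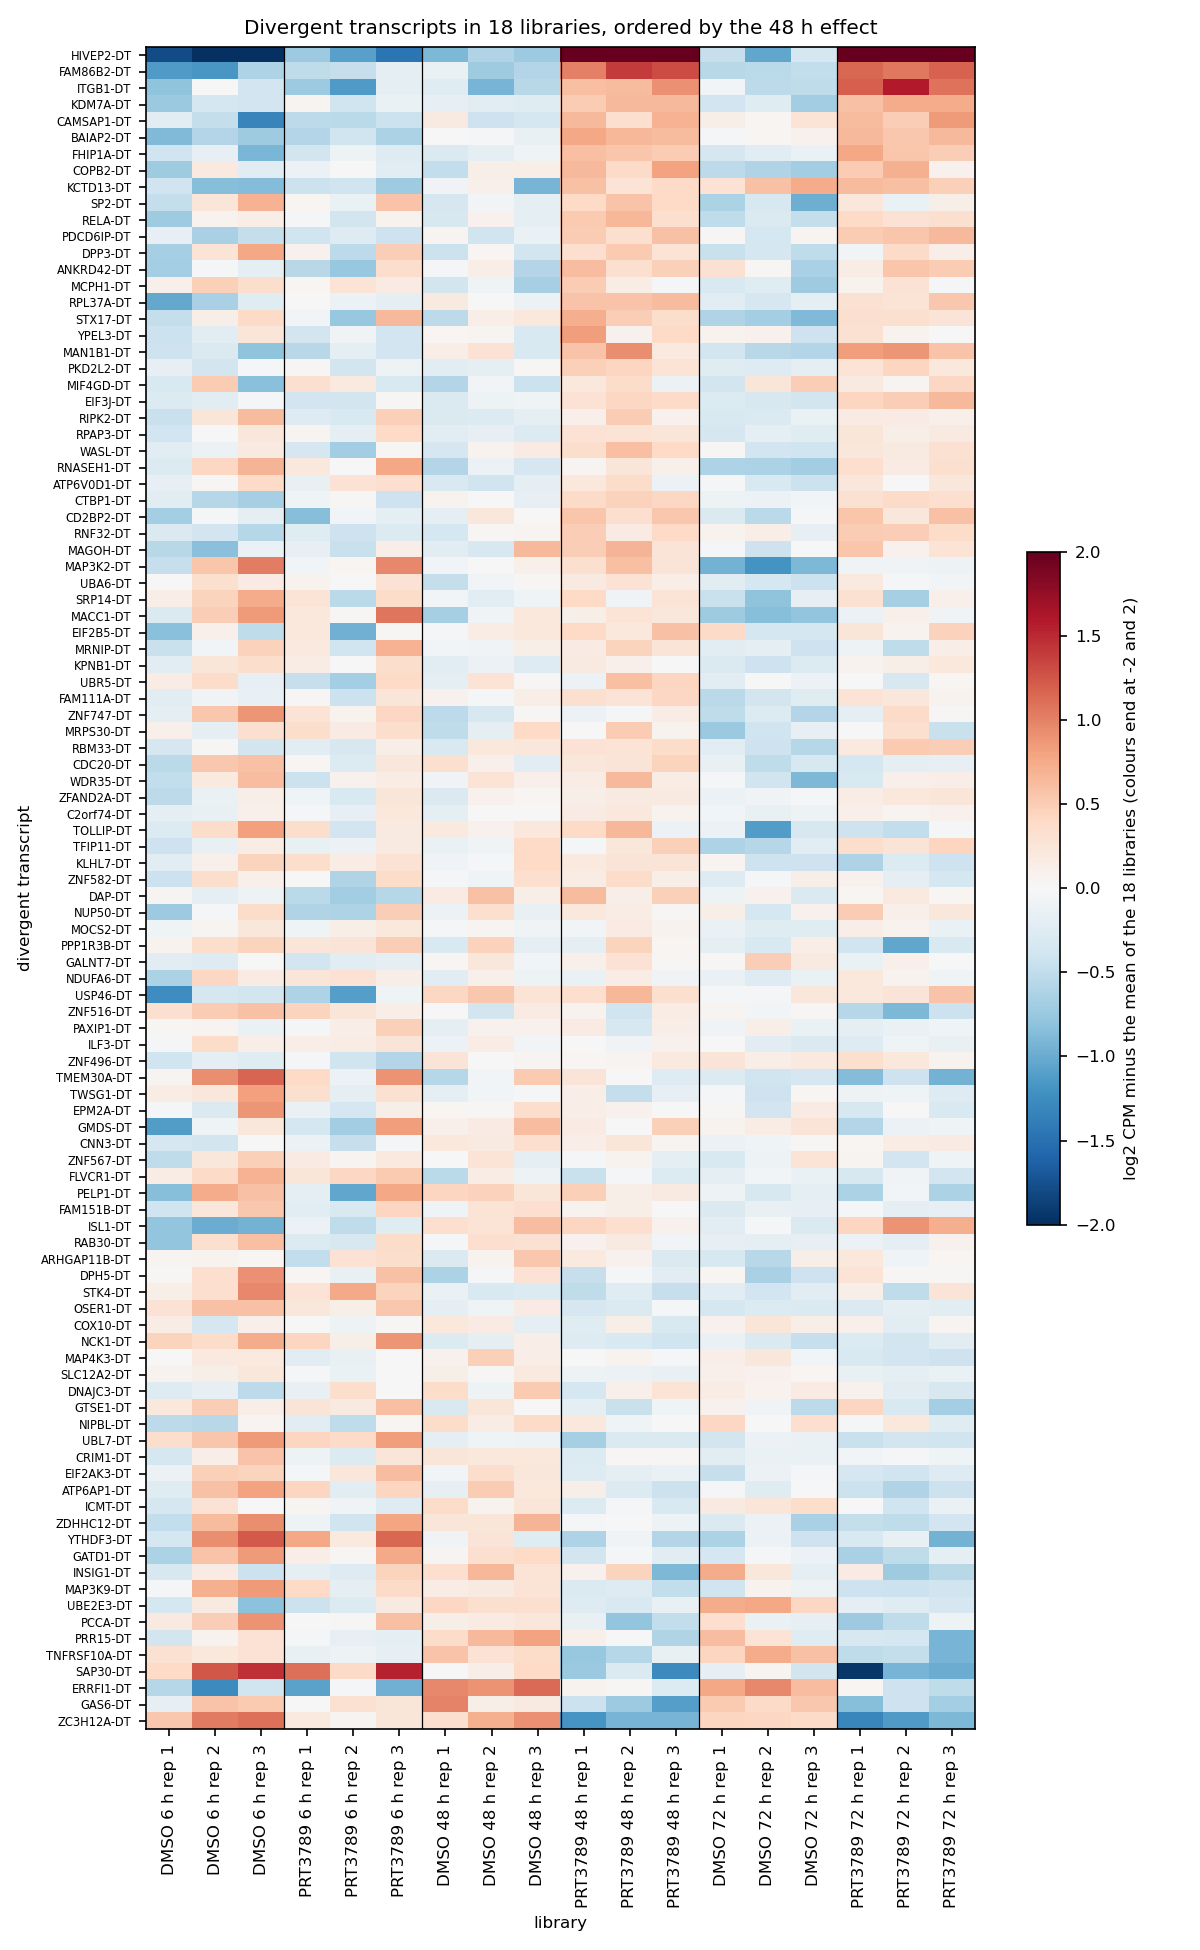
Level of each of the 102 divergent transcripts (rows, ordered by the log2FC at 48 h) in each of the 18 libraries (columns), as log2 CPM minus the transcript's mean over the libraries. HIVEP2-DT at the top is high in the 6 PRT3789 libraries of 48 and 72 h, ZC3H12A-DT at the bottom is low in the same 6, and the 6 h libraries differ among replicates.

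At 6 h the summed counts of the members took 0.0441, 0.0528 and 0.059% of the DMSO libraries and 0.0506, 0.0476 and 0.0598% of the PRT3789 libraries, which overlap. At 48 h the shares were 0.0509, 0.0556 and 0.0573% in DMSO and 0.0646, 0.0666 and 0.0648% with PRT3789, and at 72 h 0.0489, 0.0484 and 0.0487% against 0.0628, 0.063 and 0.0625%. The libraries of the later times do not overlap. The difference in the mean share was 0.0107 percentage points at 48 h and 0.0141 at 72 h (exact two-sided permutation p = 0.1 at each time, the smallest that 20 splits of 3 against 3 allow, and p = 0.9 at 6 h). This test could not reach 0.05 whatever the shares, so it decides nothing about the difference. The sum also holds members that could pass the threshold through the groups where they were high. In the group means the summed level was 544 CPM in DMSO and 625 CPM with PRT3789 at 48 h, and 482 and 599 CPM at 72 h, with no further test. BAIAP2-DT gave 20 and HIVEP2-DT 14.8 of the 81.4 CPM between the groups at 48 h, and 15.4 and 15.8 of the 117 CPM at 72 h. The other 100 members summed to 513 CPM in DMSO and 559 CPM with PRT3789 at 48 h, and to 448 and 534 CPM at 72 h. In bulk RNA, fewer cells of a kind and less RNA per cell cannot be told apart.

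**Figure D2:**
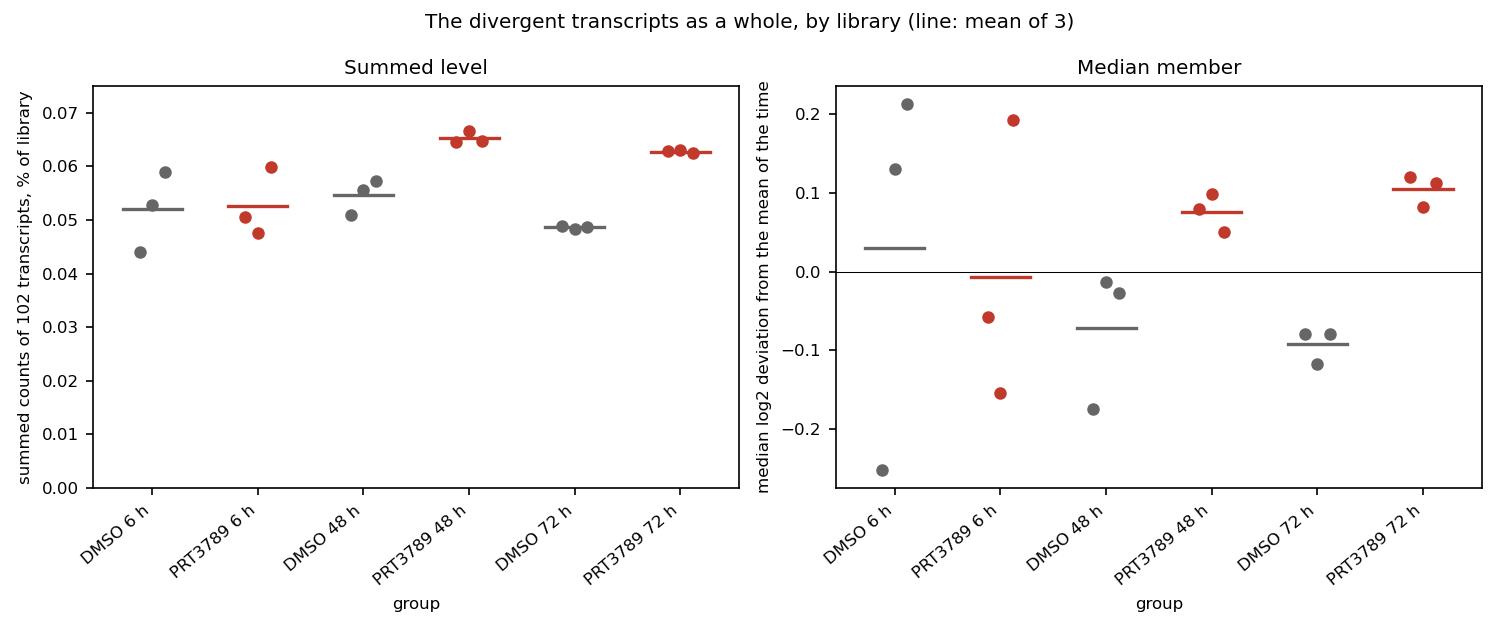
Left, summed counts of the 102 divergent transcripts as a percentage of each library's counts; right, the median log2 deviation of the members from the mean of their time point. Points are libraries (grey DMSO, red PRT3789) and lines are means of 3; the groups overlap at 6 h and stand apart at 48 and 72 h.

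Among single transcripts, 2 rose and 1 fell at 6 h (4.33% of all 16291 tested genes were called, 1.28% higher and 3.04% lower). At 48 h 20 rose and 11 fell, with 42.1% of all tested genes called, 21.2% higher and 20.9% lower. At 72 h 31 rose and 11 fell, with 43.4% of all tested genes called, 21.3% higher and 22% lower. The members called lower, 10.8% at both times, were thus a smaller share than over all genes, and those called higher were 19.6% at 48 h and 30.4% at 72 h. Replicates of the members spread more than those of all tested genes. The median SD of log2 CPM at 48 h was 0.207 against 0.147 in DMSO and 0.16 against 0.0899 with PRT3789. At 72 h it was 0.153 against 0.099 in DMSO and 0.157 against 0.0928 with PRT3789. The part of this spread in the called shares was not tested. The median log2FC of the members was 0.13 at 48 h (0.01 over all tested genes) and 0.19 at 72 h (0.01), and 61 and then 67 of 102 lay above 0. Of the 77 members with at least 1 CPM in every group mean, 18 rose and 6 fell at 48 h and 26 rose and 5 fell at 72 h. Transcripts whose 3 PRT3789 libraries all lay above the 3 DMSO libraries numbered 37 at 48 h and 41 at 72 h, and 17 lay below at each time. Without DMSO or PRT3789 replicate 3 at 48 h 5 members were called lower, and 7 without DMSO replicate 2 at 72 h. At 6 h 5 members lay above and 5 below, with 6.36% and 8.35% of all tested genes. Over all tested genes these shares were 28.7% above and 27.5% below at 48 h, and 31.2% and 30.7% at 72 h.

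Most members called at 48 h were also called at 72 h. The libraries and DMSO controls were other ones, but both times came from the same fit with a shared spread. Of all tested genes, 42.1% were called at 48 h and 43.4% at 72 h, and the share called at both was not counted. Members called higher at both times numbered 19, and 9 were called lower at both. KCTD13-DT was called higher at 48 h alone, 12 members at 72 h alone, PCCA-DT and MAP3K9-DT were called lower at 48 h alone and ZNF516-DT and MAP4K3-DT at 72 h alone. MAP3K9-DT lost its call without replicate 2 or 3 of DMSO or replicate 1 or 3 of PRT3789, and MAP4K3-DT without DMSO replicate 2. None was called in opposite directions, and 57 were called at neither. The change of the effect from 48 to 72 h was tested directly, and no member and none of the 16291 genes was called by edgeR (5 members at an unadjusted p under 0.05, and 1 member called by DESeq2). So a call at 72 h alone is not shown to be a stronger effect at 72 h.

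**Figure D3:**
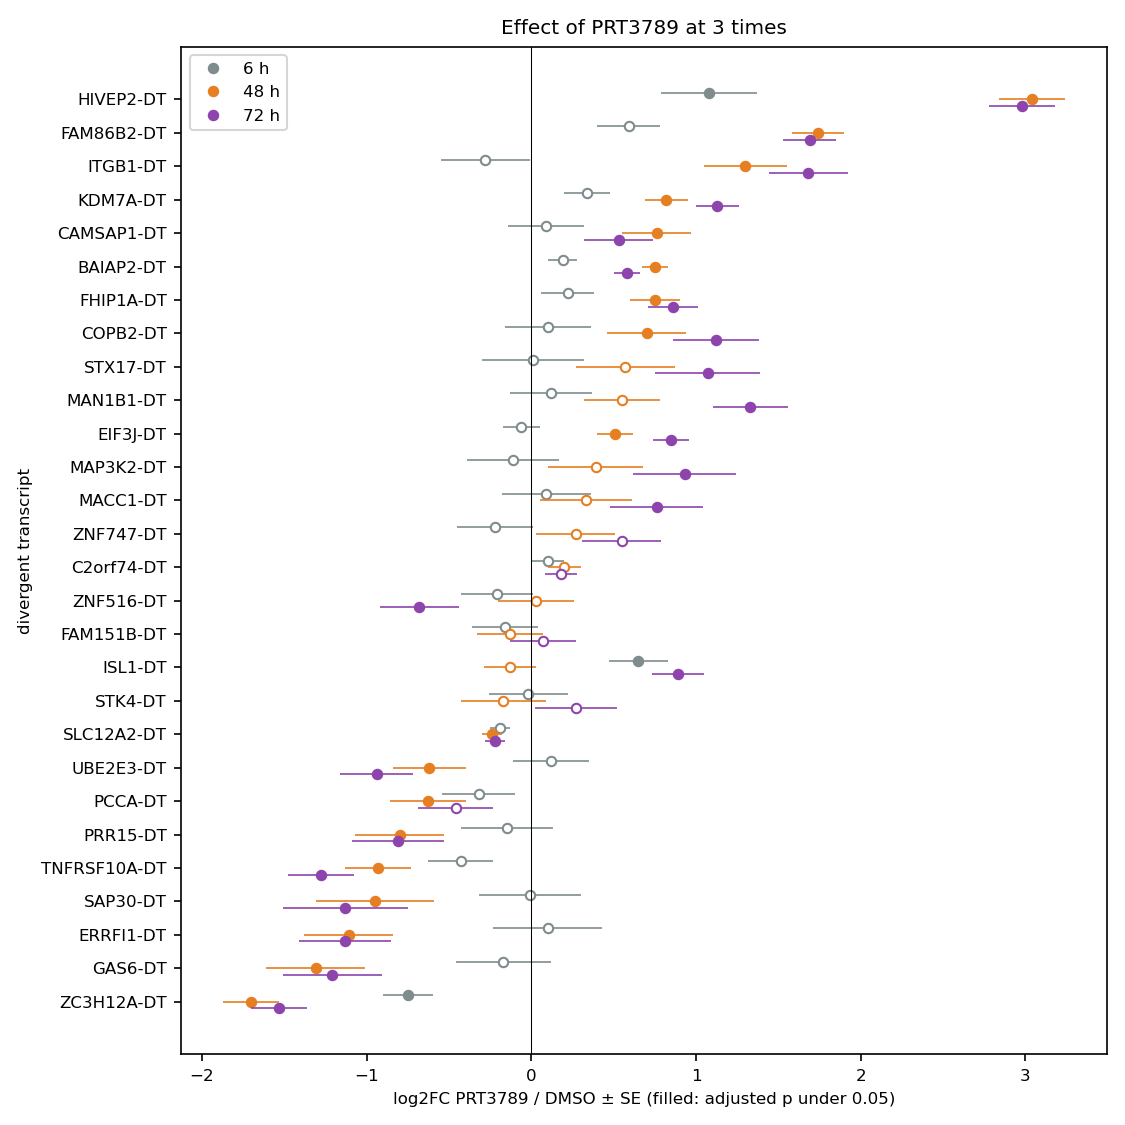
Log2FC of PRT3789 over DMSO with its standard error at 6, 48 and 72 h for the members named by the rule, ordered by the 48 h value; filled points passed the adjusted p of 0.05. HIVEP2-DT is at 1.08, 3.04 and 2.98, and ZC3H12A-DT at -0.75, -1.70 and -1.53.

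HIVEP2-DT (chr6, 142946489 to 142963279, plus strand) starts 756 bases from HIVEP2, the gene of a zinc finger transcription factor that binds enhancer motifs. At 48 h it stood at 1.83, 2.27 and 2.06 CPM in DMSO and at 15.3, 15.7 and 19.7 CPM with PRT3789. At 72 h it stood at 2.50, 1.64 and 2.69 CPM in DMSO and at 15.6, 22.0 and 16.7 CPM with PRT3789. The groups lay far apart at both times, with an 8.20-fold rise at 48 h (log2FC 3.04 ± 0.20 SE, adjusted p = 2.01e-09 in edgeR's quasi-likelihood test) and 7.89-fold at 72 h (2.98 ± 0.20, adjusted p = 1.68e-09). HIVEP2 itself rose less, by 0.67 ± 0.16 on the log2 scale at 48 h (adjusted p = 0.0031) and 0.41 ± 0.16 at 72 h (adjusted p = 0.0486). The log2 ratio of transcript to partner, whose size depends on both lengths, went from a mean of -5.28 in DMSO to -2.97 with PRT3789 at 48 h and from -5.41 to -2.87 at 72 h, without overlap. The call of HIVEP2 at 72 h ended without any of 5 of the 6 libraries of that time (all but DMSO replicate 3), without a filter, with DESeq2 size factors and with a replicate block over all groups (adjusted p up to 0.178).

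At 6 h HIVEP2-DT had 0.95, 0.80 and 0.52 CPM in DMSO and 2.06, 1.59 and 1.22 CPM with PRT3789, which do not overlap (log2FC 1.08 ± 0.29, adjusted p = 0.0423). ISL1-DT, beside the gene of a LIM homeobox factor, had 1.78, 1.55 and 1.61 CPM in DMSO and 2.91, 2.19 and 2.65 CPM with PRT3789 (0.65 ± 0.18, adjusted p = 0.0462). Both rises sat close to the threshold. That of HIVEP2-DT ended without replicate 2 or 3 of DMSO or replicate 1 or 2 of PRT3789, and that of ISL1-DT when DMSO replicate 2 or 3 or PRT3789 replicate 1 or 3 was left out. Fitted on the 6 h libraries alone, none of the 3 members called at 6 h passed (0.976% of 15061 genes were called so). The spread between 6 h replicates was wide: the median SD of the members' log2 CPM was 0.338 in DMSO and 0.259 with PRT3789, against 0.153 to 0.207 at the later times. The median member lay 0.252 below the 6 h mean in DMSO replicate 1 and 0.131 and 0.213 above it in replicates 2 and 3 on the log2 scale. In the PRT3789 libraries it was -0.06, -0.16 and 0.19, so the replicates of both groups overlap. The part of this shift in the 6 h results was not tested.

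ZC3H12A-DT was the member called lower at 6 h. Its partner ZC3H12A encodes Regnase-1, an RNase that degrades mRNAs of inflammatory genes. It stood at 9.50, 13.5 and 14.0 CPM in DMSO and at 7.47, 6.79 and 7.73 CPM with PRT3789 at 6 h (log2FC -0.75 ± 0.15, adjusted p = 0.00662, and adjusted p = 0.134 with the time fitted apart). Later levels with PRT3789 were lower, at 2.85, 3.40 and 3.38 CPM against 8.24, 10.7 and 12.3 CPM in DMSO at 48 h, and 2.60, 2.93 and 3.44 CPM against 8.84, 8.71 and 8.48 CPM at 72 h. The log2FC was -1.70 ± 0.17 at 48 h and -1.53 ± 0.17 at 72 h, and all PRT3789 libraries lay below all DMSO libraries at each time. ZC3H12A fell alongside, by 1.40 and 1.28 on the log2 scale at 48 and 72 h, and had a log2FC of -0.51 at 6 h (adjusted p = 0.164). The log2 ratio of transcript to partner overlapped between the groups at all 3 times.

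Of 101 pairs with both genes tested, 15 were called in the same direction at 48 h, 8 of them higher and 7 lower, and 4 in opposite directions. At 72 h 16 were called in the same direction, 11 higher and 5 lower, and 4 in opposite directions. Only the transcript was called in 11 pairs at 48 h and 21 pairs at 72 h, of which 8 and 17 were higher. Only the partner was called in 30 and 28 pairs, of which 16 and 19 were lower. Without PRT3789 48 h replicate 3, 8 pairs shared a call at 48 h, and the opposite calls came to 2 without that library or DMSO 48 h replicate 3. At 72 h the opposite calls came to 2 without DMSO replicates 1 or 3 or PRT3789 replicate 2. The shared direction among pairs with both called was 78.9% at 48 h and 80% at 72 h. Among 850 pairs of protein-coding genes that start head to head, it was 72.8% and 74.6%. Across the 101 pairs, which share libraries and are not independent replicates, the log2FC of transcript and partner were correlated. Pearson r was 0.434 and Spearman rho 0.336 at 48 h, and 0.406 and 0.379 at 72 h. Over the 850 head-to-head coding pairs they were 0.36 and 0.264 at 48 h, and 0.327 and 0.313 at 72 h.

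**Figure D4:**
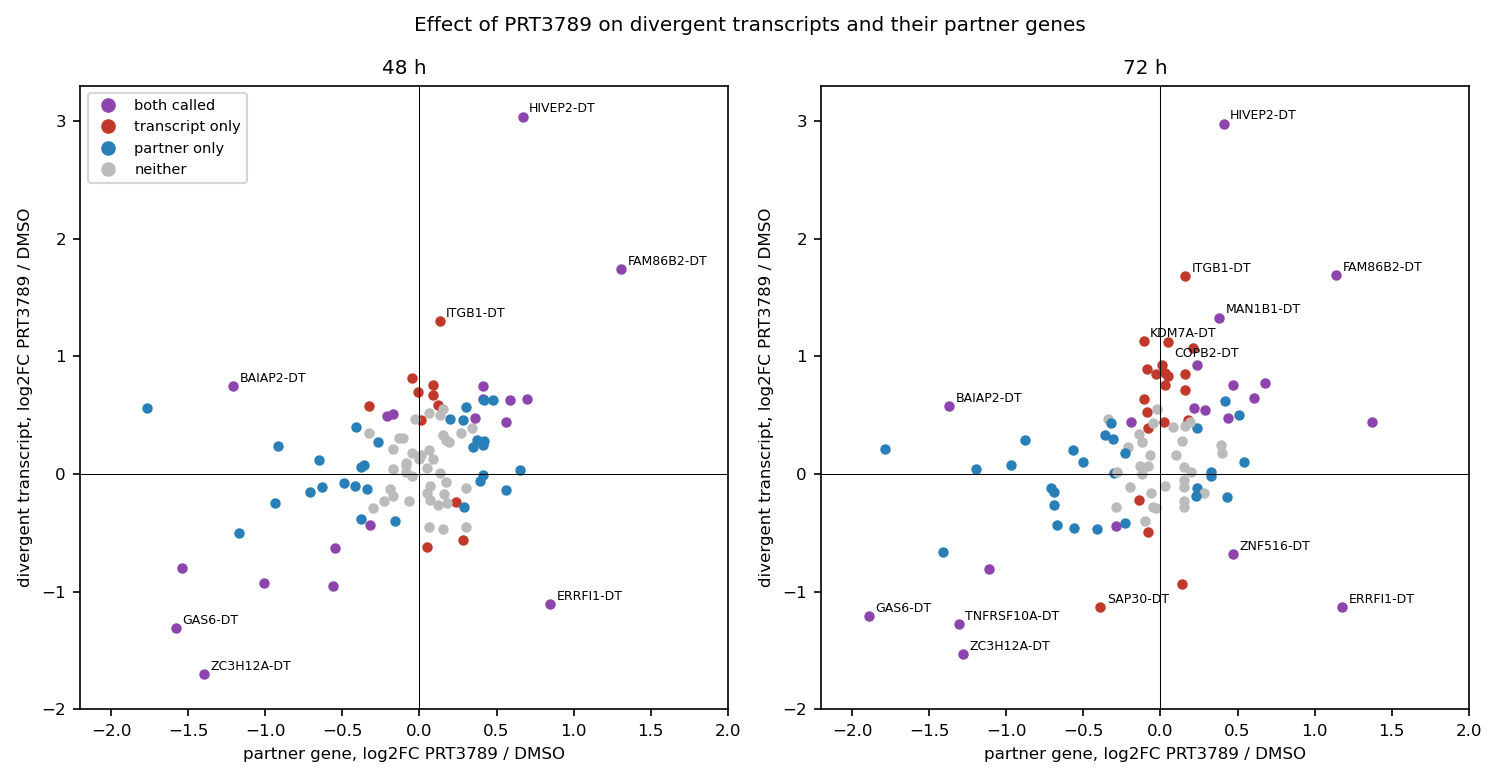
Log2FC of PRT3789 over DMSO for each divergent transcript (y) against its partner (x) at 48 h (left) and 72 h (right), for 101 pairs coloured by which of the pair was called. GAS6-DT and ZC3H12A-DT lie low with their partners, BAIAP2-DT above a fallen partner and ERRFI1-DT below a risen one.

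The transcripts that fell with their partners at both times were ZC3H12A-DT, GAS6-DT, TNFRSF10A-DT, PRR15-DT and ICMT-DT. GAS6 is the secreted ligand of the TYRO3, AXL and MERTK receptor kinases. GAS6-DT stood at 1.94, 1.02 and 1.07 CPM in DMSO and 0.68, 0.54 and 0.40 CPM with PRT3789 at 48 h (log2FC -1.31 ± 0.30, adjusted p = 0.00198). At 72 h it had 1.37, 1.23 and 1.40 CPM against 0.49, 0.68 and 0.56 CPM (-1.21 ± 0.30, adjusted p = 0.00287). The groups did not overlap, and GAS6 fell by 1.58 ± 0.11 and 1.89 ± 0.11 on the log2 scale.

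TNFRSF10A encodes the TRAIL receptor DR4, a death receptor. TNFRSF10A-DT had 1.90, 1.56 and 1.65 CPM in DMSO and 0.71, 0.83 and 1.13 CPM with PRT3789 at 48 h, and 1.72, 2.17 and 1.93 CPM against 0.87, 0.88 and 0.63 CPM at 72 h. Its log2FC was -0.93 ± 0.20 and then -1.28 ± 0.20, next to -1.01 and -1.31 for TNFRSF10A. The ratio of the pair overlapped between groups at all times. With 3 libraries per group and no test, this overlap does not show that the proportions were kept. PRR15-DT fell by 0.80 and 0.81 on the log2 scale while PRR15 fell by 1.54 and 1.11. Its call ended in 3 of the 6 leave-outs of each time: without DMSO replicates 2 or 3 or PRT3789 replicate 3 at 48 h, and without DMSO replicates 1 or 2 or PRT3789 replicate 3 at 72 h (adjusted p up to 0.143). ICMT-DT, beside the gene of a methyltransferase that acts on prenylated proteins, had a log2FC of -0.43 and -0.44, calls close to the threshold (adjusted p = 0.0487 and 0.0436) that ended with total counts, without a filter, with either replicate block, at 48 h also with the time fitted apart, and without 1 of 4 libraries at 48 h (all but DMSO and PRT3789 replicates 2) or 1 of 5 at 72 h (all but PRT3789 replicate 1). Its partner ICMT (-0.32 and -0.29) lost its call with total counts and without DMSO replicate 1 at both times, and at 72 h also without PRT3789 replicates 2 or 3.

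SAP30 is a subunit of the SIN3 histone deacetylase complex. SAP30-DT had 1.94, 2.14 and 2.57 CPM in DMSO and 1.14, 1.57 and 0.76 CPM with PRT3789 at 48 h, and 1.72, 2.02 and 1.5 CPM against 0.45, 0.99 and 0.94 CPM at 72 h. It fell by 0.95 ± 0.36 (adjusted p = 0.0413) and 1.13 ± 0.38 (adjusted p = 0.0223) on the log2 scale, without overlap of libraries. SAP30 fell at 48 h (-0.56) and had a log2FC of -0.39 at 72 h (adjusted p = 0.0503). The calls of SAP30-DT ended in limma-voom at both times and without a filter at 48 h. They also ended without replicate 2 or 3 of DMSO or replicate 1 or 3 of PRT3789 at 48 h, and without DMSO replicate 2 or PRT3789 replicate 1 at 72 h. PCCA-DT, beside the gene of a propionyl-CoA carboxylase subunit, fell with PCCA at 48 h (-0.63 and -0.55), a call that ended when any of 5 of the 6 libraries of that time was left out, all but PRT3789 replicate 1.

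Pairs that rose together at both times were those of HIVEP2-DT, FAM86B2-DT, PDCD6IP-DT, WASL-DT, RELA-DT and RNF32-DT. FAM86B2-DT had 3.13, 2.08 and 2.28 CPM in DMSO and 7.04, 9.24 and 8.62 CPM with PRT3789 at 48 h, and 2.32, 2.35 and 2.43 CPM against 7.77, 7.28 and 7.93 CPM at 72 h. This was a 3.33-fold and a 3.23-fold rise (log2FC 1.74 ± 0.16 and 1.69 ± 0.16, adjusted p = 1.54e-07 and 1.91e-07), with 1.31 and 1.14 for FAM86B2. FAM86B2 belongs to a family of near-identical copies, so reads can be split among them and both values are uncertain. RELA encodes the p65 subunit of NF-kB. RELA-DT rose by 0.64 ± 0.18 and 0.77 ± 0.18 on the log2 scale, and RELA by 0.70 and 0.68. WASL, the actin regulator N-WASP, had 0.36 and 0.44, and WASL-DT 0.48 at each time (adjusted p = 0.0331 and 0.0332). The calls of WASL-DT ended without 1 of 5 libraries at 48 h (all but DMSO replicate 3) and 1 of 4 at 72 h (all but DMSO replicate 1 and PRT3789 replicate 2). Those of RNF32-DT, 0.44 at each time, ended without DMSO or PRT3789 replicate 1 at 48 h and without DMSO replicate 3 at 72 h (adjusted p up to 0.0716). MAN1B1-DT rose with MAN1B1, an endoplasmic reticulum mannosidase, at 72 h: 0.99, 0.86 and 0.83 CPM in DMSO and 2.36, 2.45 and 1.95 CPM with PRT3789 (1.33 ± 0.23, adjusted p = 0.000156), with 0.38 ± 0.06 for MAN1B1. The ratio in this pair was higher with PRT3789 by 0.88 on the log2 scale, without overlap.

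The 8 transcripts that rose at 48 h without a call in the partner were CTBP1-DT, KDM7A-DT, ITGB1-DT, MCPH1-DT, CAMSAP1-DT, RPL37A-DT, KCTD13-DT and COPB2-DT. KCTD13-DT, with 0.67 ± 0.23, lost its call without DMSO replicate 3 or PRT3789 replicates 1 or 3, and MCPH1-DT, with 0.59 ± 0.18, without DMSO replicate 3 or PRT3789 replicate 1. ITGB1, whose annotated span lies 24321 bases from that of ITGB1-DT, encodes integrin beta 1, the shared subunit of many matrix receptors. ITGB1-DT had 2.61, 1.6 and 2.09 CPM in DMSO and 4.73, 4.85 and 5.90 CPM with PRT3789 at 48 h, and 2.99, 2.13 and 2.16 CPM against 7.18, 9.49 and 6.68 CPM at 72 h. It rose 2.47-fold (log2FC 1.30 ± 0.25, adjusted p = 0.000398) and 3.20-fold (1.68 ± 0.24, adjusted p = 1.92e-05), without overlap. ITGB1 had 0.13 ± 0.08 (adjusted p = 0.208) and 0.16 ± 0.08 (adjusted p = 0.113). The log2 ratio of the pair was higher by 1.16 at 48 h and 1.5 at 72 h, without overlap.

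KDM7A is a histone lysine demethylase. KDM7A-DT stood at 7.60, 7.38 and 7.20 CPM in DMSO and 12.2, 13.4 and 13.5 CPM with PRT3789 at 48 h, and at 6.55, 7.18 and 5.22 CPM against 12.8, 14.3 and 14.3 CPM at 72 h. The rise was 0.82 ± 0.13 (adjusted p = 6.06e-05) and then 1.13 ± 0.13 on the log2 scale (adjusted p = 1.44e-06), whereas KDM7A had -0.05 ± 0.12 and -0.11 ± 0.12. COPB2 is a subunit of the COPI vesicle coat. COPB2-DT rose by 0.70 ± 0.24 and 1.12 ± 0.26, next to -0.01 and 0.05 for COPB2. The 48 h call of COPB2-DT ended without a filter and without DMSO replicate 1 or PRT3789 replicates 1 or 3 (adjusted p up to 0.118). CAMSAP1-DT, beside the gene of a protein that caps microtubule minus ends, rose by 0.76 and 0.53 with CAMSAP1 at 0.09 and -0.09. Its 72 h call ended without any of 5 of the 6 libraries, all but PRT3789 replicate 2, and its 48 h call without DMSO replicate 2 (adjusted p up to 0.172).

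At 72 h 17 transcripts rose without a call in the partner. They took in CTBP1-DT, KDM7A-DT, ITGB1-DT, CAMSAP1-DT, RPL37A-DT and COPB2-DT again, and EIF3J-DT, MACC1-DT, MAP3K2-DT, FHIP1A-DT, ISL1-DT, STX17-DT and KPNB1-DT. STX17 is a SNARE protein of autophagosomes, and STX17-DT had 0.99, 0.93 and 0.80 CPM in DMSO and 1.94, 1.94 and 1.84 CPM with PRT3789 (log2FC 1.07 ± 0.32, adjusted p = 0.0102). MAP3K2 encodes the kinase MEKK2, and MAP3K2-DT had 3.77, 3.14 and 3.89 CPM against 6.91, 6.94 and 6.78 CPM (0.93 ± 0.31, adjusted p = 0.0208, and 0.0693 without DMSO replicate 2). FHIP1A-DT rose by 0.86 ± 0.15 with FHIP1A at 0.03, after a shared rise at 48 h of 0.75 and 0.41, in which the call of FHIP1A ended without replicate 2 or 3 of DMSO or replicate 1 or 3 of PRT3789 (adjusted p up to 0.122). MACC1-DT, with 10.1, 9.08 and 9.51 CPM against 15.2, 17.7 and 15.7 CPM, rose by 0.76 ± 0.28 (adjusted p = 0.0397), a call that ended when any 1 library of that time was left out. At 6 h MACC1-DT spread from 13.5 to 29.7 CPM within DMSO alone, and MAP3K2-DT from 5.27 to 14.9 CPM, wider than the later effect.

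BAIAP2 encodes IRSp53, which bends membranes over actin in cell protrusions. BAIAP2-DT had 30.3, 29.5 and 27.3 CPM in DMSO and 51.7, 48.2 and 47.1 CPM with PRT3789 at 48 h, and 29.5, 31.3 and 32.3 CPM against 47.6, 43.9 and 47.6 CPM at 72 h. BAIAP2 went the other way, with 140.5, 142 and 123 CPM against 60.1, 56.5 and 58.0 CPM at 48 h, and 145, 143 and 142 CPM against 59.1, 51.1 and 56.6 CPM at 72 h. The transcript rose by 0.75 ± 0.08 (adjusted p = 1.09e-06) and 0.58 ± 0.08 (adjusted p = 1.9e-05) on the log2 scale, while the gene fell by 1.21 ± 0.08 and 1.37 ± 0.08 (adjusted p = 1.61e-09 and 2.91e-10). At 6 h BAIAP2 had already fallen, from 122, 115 and 114 CPM to 72.7, 80.1 and 65.1 CPM (-0.69 ± 0.08, adjusted p = 2.37e-05), and BAIAP2-DT had a log2FC of 0.19 ± 0.09 (adjusted p = 0.332). The log2 ratio of the pair was higher with PRT3789 by 0.88, 1.96 and 1.95 at 6, 48 and 72 h, without overlap at any time. Start sites of this pair lie 432 bases apart and the gene models do not overlap (BAIAP2-DT, chr17, 81029133 to 81034719, minus strand).

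ERRFI1, also called MIG6, is a feedback inhibitor of the EGF receptor. ERRFI1-DT (chr1, 8026493 to 8127070, plus strand, 184 bases from ERRFI1) had 2.05, 1.95 and 2.31 CPM in DMSO and 1.07, 1.04 and 0.83 CPM with PRT3789 at 48 h. At 72 h it had 1.80, 2.06 and 1.6 CPM against 1.04, 0.75 and 0.70 CPM. ERRFI1 moved from 172, 179 and 188 CPM to 318, 331 and 326 CPM at 48 h, and from 185, 186 and 167 CPM to 394, 440.5 and 386 CPM at 72 h. Thus the transcript fell by 1.11 ± 0.27 (adjusted p = 0.0036) and 1.13 ± 0.28 (adjusted p = 0.00324), and the gene rose by 0.85 ± 0.07 and 1.18 ± 0.07 (adjusted p = 1.59e-08 and 2.19e-10). At 6 h the transcript overlapped between groups (log2FC 0.10 ± 0.33), with 0.38 to 0.99 CPM over the 6 libraries. The ratio of the pair was lower with PRT3789 by 1.91 and 2.26 on the log2 scale at 48 and 72 h.

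**Figure D5:**
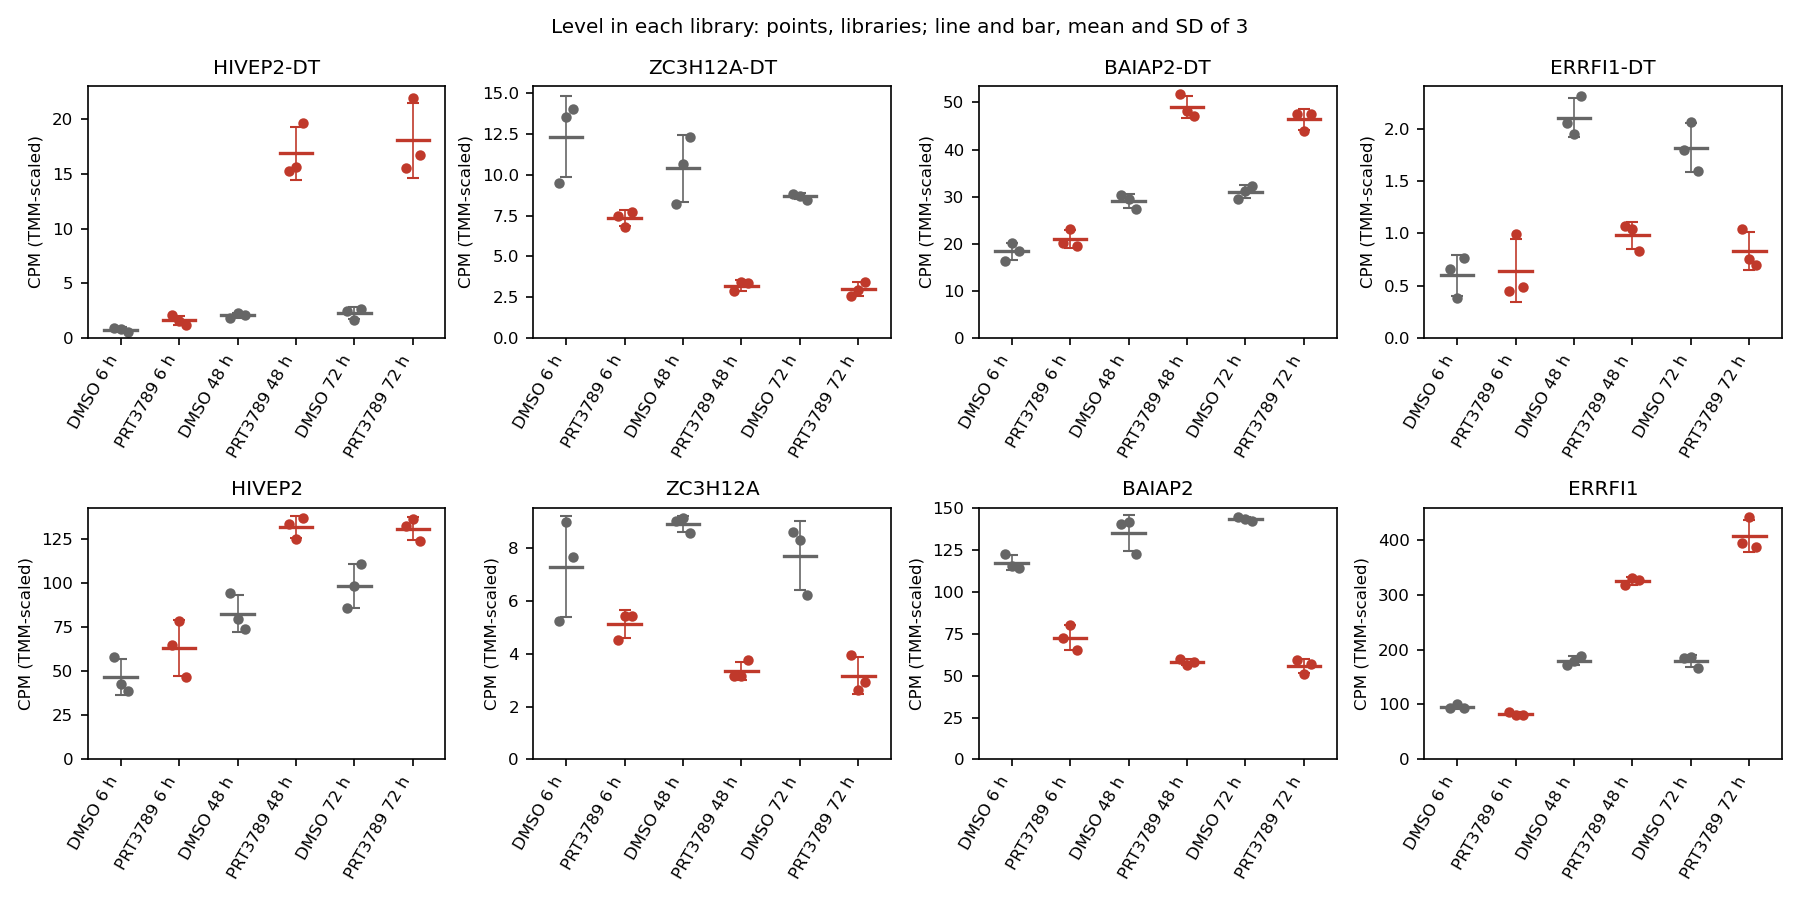
CPM in every library (points, with mean and SD of 3; grey DMSO, red PRT3789; each axis starts at 0) for 4 divergent transcripts (top) and their partners (bottom). ZC3H12A-DT and ZC3H12A are both low with PRT3789 at 48 and 72 h, BAIAP2-DT is high where BAIAP2 is low, and ERRFI1-DT is low where ERRFI1 is high.

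The other opposite calls were smaller. EIF3J-DT rose by 0.51 ± 0.11 at 48 h as EIF3J, a translation initiation factor subunit, fell by 0.17 ± 0.06. This fall ended with total counts, without a filter and without replicate 1 or 3 of DMSO or replicate 1 or 3 of PRT3789 (adjusted p up to 0.154). At 72 h EIF3J-DT had 15.4, 14.8 and 14.4 CPM in DMSO and 25.1, 26.1 and 29.2 CPM with PRT3789 (0.85 ± 0.11, adjusted p = 4.56e-06). RPAP3-DT rose by 0.49 and 0.44 while RPAP3, a cofactor of HSP90, fell by 0.21 and 0.19. The call of RPAP3 ended with total counts and without a filter at both times, with a replicate block within each time at 72 h, without DMSO or PRT3789 replicate 3 at 48 h, and without any 1 library at 72 h (adjusted p up to 0.164), and that of RPAP3-DT at 72 h without DMSO replicate 1 (0.0605). ZNF516-DT fell at 72 h by 0.68 ± 0.24 (adjusted p = 0.0256), next to a rise of 0.47 in ZNF516, a zinc finger gene. That fall ended without a filter, with DESeq2, with the time fitted apart and without DMSO replicates 1 or 3 or PRT3789 replicate 2 (adjusted p up to 0.112).

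UBE2E3-DT, beside the gene of a ubiquitin-conjugating enzyme, fell while its partner was not called. It had 2.09, 1.95 and 1.98 CPM against 1.28, 1.24 and 1.39 CPM at 48 h and 2.64, 2.69 and 2.09 CPM against 1.35, 1.29 and 1.22 CPM at 72 h. The log2FC was -0.62 ± 0.22 (adjusted p = 0.0355) and -0.94 ± 0.22 (adjusted p = 0.0021), with 0.05 and 0.14 for UBE2E3. At 48 h the call ended when any 1 library was left out (adjusted p up to 0.0828). SLC12A2-DT fell by 0.24 ± 0.06 and 0.22 ± 0.06, from 52.6, 49.5 and 55.9 CPM to 45.4, 44.6 and 44.0 CPM at 48 h, with SLC12A2 not called. C2orf74-DT and FAM151B-DT, also among the members with the most counts, were not called at any time.

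Among the pairs in which only the partner was called, 3 whose partner fell are given here, picked after their values were seen. CDC20, the activator of the anaphase-promoting complex, fell from 135, 140 and 133 CPM to 72.2, 70.9 and 72.5 CPM at 48 h (log2FC -0.92 ± 0.06). CDC20-DT had 1.64, 1.40 and 1.1 CPM against 1.53, 1.57 and 1.79 CPM there, which overlap (0.24 ± 0.26, adjusted p = 0.48). GTSE1, a mitotic spindle protein, fell by 0.94 and 1.20, with GTSE1-DT at -0.25 ± 0.29 and 0.04 ± 0.29. YPEL3 fell by 1.77 and 1.79, with YPEL3-DT at 0.56 ± 0.23 (adjusted p = 0.0579) and 0.21 ± 0.23. The log2 ratio was higher with PRT3789 in these 3 pairs, by 1.16 and 1.05 for CDC20-DT, 0.72 and 1.18 for GTSE1-DT, and 2.27 and 1.99 for YPEL3-DT, without overlap. The standard errors of these transcripts, 0.23 to 0.29, were above those of their partners, 0.06 to 0.16.

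Over all 101 pairs, the ratio of transcript to partner was higher in all 3 PRT3789 libraries in 27 pairs at 48 h and 42 pairs at 72 h, and lower in all 3 in 15 and 14 pairs. The median change of the log2 ratio was 0.15 at 48 h and 0.26 at 72 h. At 6 h the libraries stood apart in 6 pairs upward and 1 downward, with a median of -0.02. In either direction the ratio stood apart in 41.6% of the 101 pairs at 48 h and 55.4% at 72 h, against 53.3% and 58.2% of the 850 head-to-head coding pairs. These ratio counts carry no test of their own.

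Between 6 and 48 h the effect of PRT3789 itself changed in 9 members, 7 upward and 2 downward (interaction test in edgeR, 19.2% of all tested genes called, 8.83% upward and 10.4% downward). HIVEP2-DT gained 1.95 (adjusted p = 0.00106), ITGB1-DT 1.58 (adjusted p = 0.00509) and FAM86B2-DT 1.15 (adjusted p = 0.00305) on the log2 scale. ZC3H12A-DT changed by -0.95 (adjusted p = 0.00622) and ISL1-DT by -0.78 (adjusted p = 0.0277). The call of ISL1-DT ended without a filter, in limma-voom and on leaving out replicate 2 of DMSO or 1 of PRT3789 at 6 h, or replicate 3 of either group at 48 h (adjusted p up to 0.0749). Without DMSO 6 h replicate 1, 14 members were called. For ISL1-DT the effect was 0.65 at 6 h, -0.13 at 48 h and 0.89 at 72 h, with 3.99, 3.83 and 4.85 CPM in DMSO and 4.27, 3.98 and 3.35 CPM with PRT3789 at 48 h. At 72 h it had 2.71, 3.10 and 2.56 CPM in DMSO and 4.27, 5.95 and 5.25 CPM with PRT3789 (adjusted p = 0.000169). ISL1 had 0.37, -0.34 and -0.09 at the 3 times, the first 2 of them called (the 6 h call ended without a filter, with the time fitted apart and without replicate 1 or 2 of DMSO or replicate 1 or 3 of PRT3789, with an adjusted p up to 0.433). Its transcript's change of effect from 48 to 72 h, 1.02 ± 0.22, had an adjusted p of 0.135.

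Some divergent transcripts also differed between culture times. In DMSO alone 13 members were higher and 10 lower at 48 h than at 6 h. These were 22.5% of the members, 12.7% higher and 9.8% lower. Over all tested genes the called share was larger, at 37.2%, with 17.1% higher and 20.1% lower. ERRFI1-DT rose most, from 0.66, 0.38 and 0.76 CPM to 2.05, 1.95 and 2.31 CPM (log2FC 1.81 ± 0.30, adjusted p = 0.000174), and here ERRFI1 rose with it (0.91 ± 0.07). HIVEP2-DT rose by 1.42 ± 0.28 with HIVEP2 at 0.82 ± 0.17. ISL1-DT rose by 1.35 ± 0.17 with ISL1 at -0.11 ± 0.10. SAP30-DT fell by 0.93 ± 0.32, STK4-DT by 0.79 ± 0.25 and ZNF747-DT by 0.75 ± 0.24, while SAP30 fell by 0.57, STK4 had 0.11 and ZNF747 rose by 0.63. A replicate block within each time sets this contrast at the level of replicate 1 of each time. It is thus not a repeat of the comparison of group means. In that fit HIVEP2-DT, SAP30-DT, SAP30, STK4-DT, ZNF747-DT and ZNF747 were not called (adjusted p up to 0.394), and 10 members were called in all. SAP30-DT and ZNF747-DT also lost their calls without DMSO 6 h replicates 2 or 3 or DMSO 48 h replicates 1 or 2, STK4-DT without DMSO 6 h replicate 3 or DMSO 48 h replicate 2, and SAP30 without DMSO 6 h replicate 3. SAP30-DT did so in limma-voom as well. These comparisons use the same DMSO libraries as the effects at 6 and 48 h. Without DMSO 6 h replicate 1, 34 members were called, and 15 without DMSO 6 h replicate 3 or DMSO 48 h replicate 1.

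From 48 to 72 h in DMSO no member was called by edgeR (0.54% of all tested genes were called), 15 had an unadjusted p under 0.05 and DESeq2 called 3. Of the 102 members, 19 had a log2FC above 0, with a median log2FC of -0.19 against 0.01 over all tested genes. The 3 libraries of 72 h lay below those of 48 h in 26 members and above in 2, against 13.7% and 16.4% of all tested genes. The DMSO level at 72 h is the base of the 72 h effect.

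Genes that act on the early end or the decay of divergent RNA were taken as a list of 60, all of them tested. The list also holds U1 protein genes, and U1 favours elongation. At 6 h edgeR, DESeq2 and limma-voom each called 0 of them (2 had an unadjusted p under 0.05 in edgeR). At 48 h 10 rose and 14 fell, and at 72 h 6 rose and 14 fell, where 42.1% and 43.4% of all tested genes were called. Of 13 genes of the nuclear exosome core, 7 fell and 1 rose at 48 h, and 4 fell and 1 rose at 72 h. EXOSC10, its nuclear ribonuclease, fell by 0.23 ± 0.06 (adjusted p = 0.00451, and 0.0563 with total counts) and 0.38 ± 0.06 on the log2 scale, and DIS3, its other ribonuclease, rose by 0.33 and 0.35. Of 15 Integrator genes, whose complex cuts nascent RNA near promoters, 5 rose at 48 h and 3 at 72 h with no other call, with INTS10 at 0.53 and 0.50 and INTS8 at 0.36 at each time. Of 16 genes of 3′ end cleavage, 3 fell and 1 rose at 48 h and 7 fell and 1 rose at 72 h. NUDT21, a cleavage factor subunit, fell by 0.48 and 0.52. Of 3 U1 protein genes, 2 fell at 48 h and 1 at 72 h. SNRPA fell by 0.50 and 0.70 at 48 and 72 h (adjusted p = 1.82e-05 and 3.12e-07). Of 9 genes of the adaptors that bring RNA to the exosome, 3 rose and 1 fell at 48 h, and 1 fell at 72 h. Of 4 cap-binding genes, 1 fell at 48 h, and 1 rose and 1 fell at 72 h. SRRT, the ARS2 protein that links the RNA cap to decay, fell by 0.32 and 0.47. In DMSO 31 of the 60 were lower and 4 higher at 48 h than at 6 h, where 20.1% and 17.1% of all tested genes were lower and higher. Whether these genes bear on the members' levels was not tested.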

How the data were processed

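Gene-level expected counts of all 18 libraries were analysed as the authors deposited them. Per the submitters' processing notes and the labels' protocols, oligo(dT)-selected RNA was made into stranded libraries, sequenced as paired reads and run through nf-core/rnaseq 3.17.0 with Trim Galore, STAR (GRCh38) and RSEM, with strandedness detected by the pipeline. The versions of the single tools and the gene annotation are not given in the sources used here. The deposited values are whole numbers, and RSEM splits reads shared by similar genes. The labels do not give how the whole numbers were made. The total of DMSO 48 h replicate 3 is exactly 27000000, and whether that column was rescaled before deposit is not given. Of 43236 genes, 16043 had a count of 0 in every library.

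Counts were scaled by TMM and filtered with filterByExpr, which left 16291 genes. They were fitted with one mean per group and a shared spread in edgeR 4.0.16 (robust quasi-likelihood F test, two-sided; R 4.3.3). Genes with a Benjamini-Hochberg adjusted p under 0.05 over all tested genes are called higher or lower. Standard errors are the log2FC over the square root of F. Per-library log2 values use a prior count of 2. The fit recovered most of the 2-fold changes set at 48 h in simulated counts, in genes drawn from all tested genes. Recovery in the members alone was not examined. DESeq2 1.42.0, limma-voom (limma 3.58.1), other scalings, filters and thresholds, replicate blocks, separate fits per time and leaving out each library were the alternatives. Replicate numbers were not used to pair libraries in the main fit.

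Members, gene lists and motifs were chosen with earlier results of these data known. Named members were the 8 with the largest rise and fall among those called and without overlap at 48 and at 72 h, up to 5 in each direction at 6 h, the 3 largest in each direction for each change of effect and each DMSO time contrast, the 6 with the highest mean, those called opposite to their partner with both changed at least 1.5-fold, and 3 on each side of the threshold. Of the 60 turnover genes, the 6 called with the smallest p at 72 h were named. Other named genes, among them those of the RPAP3, ZNF516, RELA, WASL, ICMT, RNF32, CDC20, GTSE1 and YPEL3 pairs and DIS3, were chosen after their values were seen, and so was the search of the 1000 bases after the start. Sequences and gene positions come from RefSeq (GRCh38.p14), with promoter windows for 84 of 102 members.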

Additional observations from a re-analysis of the deposited data

Results flagged for a closer look

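The effect of PRT3789 differed between 6 and 48 h, by the interaction test in edgeR, in 9 divergent transcripts. On the log2 scale the later effect exceeded the earlier one by 1.95 for HIVEP2-DT (adjusted p = 0.00106), 1.58 for ITGB1-DT (adjusted p = 0.00509), 1.15 for FAM86B2-DT (adjusted p = 0.00305), 0.57 for BAIAP2-DT (adjusted p = 0.00254) and 0.57 for EIF3J-DT (adjusted p = 0.0138). It did so by 0.75 for MCPH1-DT (adjusted p = 0.0486) and 0.73 for WASL-DT (adjusted p = 0.0462), and each of these 2 calls ended in 9 of the 12 fits without 1 library of 6 or 48 h (adjusted p up to 0.16). The 3 exceptions were DMSO 6 h replicate 1, DMSO 48 h replicate 2 and PRT3789 48 h replicate 3 for MCPH1-DT, and DMSO 6 h replicate 1, PRT3789 6 h replicate 3 and DMSO 48 h replicate 3 for WASL-DT. The change was -0.95 for ZC3H12A-DT (adjusted p = 0.00622), whose fall grew, and -0.78 for ISL1-DT (adjusted p = 0.0277), which was higher with PRT3789 at 6 h and not called at 48 h. The 6 h libraries varied most between replicates, with DMSO 6 h replicate 1 lowest in the median member, and the part of this in the 9 changes was not tested.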

How the results depend on the processing

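Of 147 single-gene calls, 97 passed in every alternative and leave-out run for them and 0 changed direction (2001 of 2237 values stayed past the threshold). Counts of members moved by over 1.5 times as follows, and the cause was not tested except that the stricter thresholds call fewer by construction. At 6 h the 2 members called higher became 1 without a filter or with a replicate block within each time, 0 in limma-voom, with a replicate block over all groups or with the time fitted apart, 0 at an adjusted p under 0.01 and 1 at 2-fold or more, and the 1 called lower became 0 with the time fitted apart and 0 at 2-fold. Requiring 2-fold left 3 higher and 3 lower at 48 h, 7 higher and 5 lower at 72 h, 3 changes of effect from 6 to 48 h and 4 calls in DMSO from 6 to 48 h. An adjusted p under 0.01 left 5 lower at 48 h, 6 lower at 72 h, 5 changes of effect from 6 to 48 h, 12 calls in DMSO from 6 to 48 h, 7 pairs sharing a direction and 2 opposed at 48 h, and 10 and 2 at 72 h. A mean of at least 2 CPM left 6 lower at 48 h, and 5 lower and 2 opposed pairs at 72 h. Without a filter 2 pairs were opposed at 48 h and 2 at 72 h. With each time fitted apart 7 pairs were opposed at 48 h and 26 shared a direction at 72 h. DESeq2 called 1 change of effect from 48 to 72 h and 3 members in DMSO from 48 to 72 h, where edgeR called 0.

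Leaving out 1 library gave 0 to 3 members higher and 1 lower at 6 h, 14 to 19 higher and 5 to 9 lower at 48 h, and 24 to 28 higher and 7 to 10 lower at 72 h. The changes of effect from 6 to 48 h ranged from 7 to 14, calls in DMSO from 6 to 48 h from 15 to 34, pairs sharing a direction from 8 to 11 at 48 h and 11 to 13 at 72 h, and opposed pairs from 2 to 5 and 2 to 3. Deviations of same-numbered libraries correlated from -0.237 to 0.338 over 9 pairs. Differently numbered libraries were not compared, so these values cannot settle whether the numbers pair libraries. A replicate block within each time gave 10 members called in DMSO from 6 to 48 h, against 23 without a block. With that block the contrast between times is set at replicate 1 of each time, so the 2 counts are of different comparisons. Transcripts near 1 CPM have few counts, down to 9 in a library. Their standard errors were near 0.3 in some, such as GAS6-DT, and smaller in others, such as TNFRSF10A-DT. Members with higher levels, such as MACC1-DT, could also have standard errors near 0.3. Small changes in such transcripts could thus be missed.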
